A study of Mus musculus with 12 samples.

Results

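The 35 genes described here belong to the pancreatic acinar cell, the exocrine cell that makes digestive enzymes, and were read in 12 RNA libraries of mouse islets and islet cells. The genes were chosen by name, as rows of the expression table whose symbol is that of an acinar enzyme, granule protein, inhibitor or transcription factor, and all 35 were found among 22711 genes. They comprise 14 proteases and their zymogens, 7 lipases, amylase and cofactors, 7 other secretory and granule proteins, 2 protease inhibitors and 5 transcription factors. The first 4 classes, 30 genes, are called the secretory members below.

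All animals were RIP-rtTA; TetO-VEGF-A mice. In this strain the rat insulin promoter drives the reverse tetracycline transactivator in beta cells, so that doxycycline (Dox) in turn switches on a VEGF-A transgene there, and the animals without Dox carry the same transgenes. There were 4 groups with 3 libraries each. In the first pair the sample was whole islets, either without Dox or after Dox had been given for 1 week. The second pair was macrophages sorted after 1 week of Dox with an antibody against CD11b, and endothelial cells sorted after 1 week of Dox with an antibody against CD31. Both sorted fractions were taken from dispersed purified islets. The labels give neither age nor sex. They also do not say that the 3 libraries of a group stem from different mice, and p-values then cover only the spread between these samples, which may be technical.

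Acinar cells make up most of the pancreas and surround the islets. They store proteases as inactive zymogens, together with lipases, amylase and nucleases, in zymogen granules that are emptied into the ducts. Their genes are switched on by PTF1, a complex of the basic helix-loop-helix factor Ptf1a with an E-protein partner and Rbpjl, and by Nr5a2, Gata4 and Bhlha15 (Mist1), which support the mature secretory state. Islets freed from the pancreas by digestion can carry acinar cells or their RNA along.

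PTF1 binds a pair of short boxes, an E-box with the letters CANNTG and a TC-box with the letters TTCCC. The promoter sequences below are shown because they carry both boxes at a fixed distance and belong to enzymes described below and to Rbpjl. Promoters, from 250 bases before to 50 after the gene start, were given for 27 of the 35 members (RefSeq, GRCm38.p6). Both strands were searched with the letters CANNTGNNNNNTTCCC and CANNTGNNNNNNNNNNNNNNNNTTCCC. Of 32851 promoters of that length, 0.396% held the shorter form and 0.484% the longer. Among the members, 4 promoters held the shorter form (Cela1, Ctrb1, Prss1 and Rbpjl) and 3 the longer (Cel, Cpa1 and Rbpjl). The distances were chosen after the members' promoters had been scanned, so these counts are a description of the letters and show neither binding nor regulation. The boxes alone are common, with CANNTG in 72.3% and TTCCC in 62.7% of all promoters of that length. The boxes are in capitals, GGGAA being TTCCC read on the other strand:
Ctrb1, chr8:111690961-111691260 on the minus strand: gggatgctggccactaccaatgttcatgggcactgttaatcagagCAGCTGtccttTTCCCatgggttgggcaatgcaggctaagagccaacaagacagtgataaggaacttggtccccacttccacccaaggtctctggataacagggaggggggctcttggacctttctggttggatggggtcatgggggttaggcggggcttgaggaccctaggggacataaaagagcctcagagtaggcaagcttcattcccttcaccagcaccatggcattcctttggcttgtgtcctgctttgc
Cela1, chr15:100687871-100688170 on the minus strand: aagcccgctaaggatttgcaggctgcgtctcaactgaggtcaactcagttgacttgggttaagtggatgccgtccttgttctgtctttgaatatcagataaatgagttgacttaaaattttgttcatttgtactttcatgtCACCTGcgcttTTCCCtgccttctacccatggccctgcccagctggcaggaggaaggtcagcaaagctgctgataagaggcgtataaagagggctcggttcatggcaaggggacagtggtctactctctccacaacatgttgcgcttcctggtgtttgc
Prss1, chr6:41458680-41458979 on the plus strand: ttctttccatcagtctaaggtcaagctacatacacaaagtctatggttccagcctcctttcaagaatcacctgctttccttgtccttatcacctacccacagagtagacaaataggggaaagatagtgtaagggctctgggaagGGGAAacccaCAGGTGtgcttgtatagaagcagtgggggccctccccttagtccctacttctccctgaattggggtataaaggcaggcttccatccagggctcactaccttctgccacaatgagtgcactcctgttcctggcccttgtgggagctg
Cpa1, chr6:30638968-30639267 on the plus strand: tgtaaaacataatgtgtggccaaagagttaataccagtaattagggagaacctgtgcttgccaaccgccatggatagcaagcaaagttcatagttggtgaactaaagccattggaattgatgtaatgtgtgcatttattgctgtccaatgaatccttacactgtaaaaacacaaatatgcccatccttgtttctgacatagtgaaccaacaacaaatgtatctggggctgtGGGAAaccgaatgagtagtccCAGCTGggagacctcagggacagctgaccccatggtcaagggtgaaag
Cel, chr2:28563354-28563653 on the minus strand: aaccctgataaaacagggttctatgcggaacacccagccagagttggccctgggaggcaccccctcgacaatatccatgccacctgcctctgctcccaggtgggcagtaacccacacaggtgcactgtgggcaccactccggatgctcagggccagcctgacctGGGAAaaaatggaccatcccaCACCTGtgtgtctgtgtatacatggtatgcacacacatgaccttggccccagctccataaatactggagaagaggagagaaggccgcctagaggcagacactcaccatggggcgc
Rbpjl, chr2:164402944-164403243 on the plus strand: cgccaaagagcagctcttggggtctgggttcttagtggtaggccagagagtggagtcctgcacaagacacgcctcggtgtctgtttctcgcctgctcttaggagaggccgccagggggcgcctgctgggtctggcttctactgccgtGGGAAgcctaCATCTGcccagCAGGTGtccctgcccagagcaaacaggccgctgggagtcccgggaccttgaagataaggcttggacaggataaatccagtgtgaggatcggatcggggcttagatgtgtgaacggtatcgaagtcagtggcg
In Rbpjl a single GGGAA stands at both distances from an E-box, and the gene belongs to the complex that binds such pairs.

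Values are the authors' normalized signal, a linear value with a floor of 1 that is not corrected for gene length, so genes are compared between libraries and not with each other. Summed signal per library lay between 17626506 and 25218786, and the number of reads is unknown, so no counting interval is given. The sorted fractions matched their labels. Macrophage markers (7 genes, among them Csf1r and Cd68) took 1.08 to 1.12% of the signal in macrophages and at most 0.0798% in any other library, and endothelial markers (8 genes, among them Pecam1 and Cdh5) took 1.14 to 1.26% in endothelial cells, 0.431 to 0.537% in Dox islets and at most 0.238% elsewhere. Beta cell markers (10 genes, among them Ins1 and Ins2) took 1.83 to 3.02% in islets without Dox, 0.837 to 0.902% in Dox islets, and at most 0.0306% in a sorted library. In 2 islet libraries, replicate 2 without Dox and replicate 1 with Dox, deviations from the group mean rose with gene GC content (Spearman 0.66 and 0.61 across 11585 genes), whereas in the other 4 islet libraries the relation was between -0.32 and -0.48.

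The 35 genes were read in every group, with a wide spread between the libraries of each sorted fraction. Together they took 0.261, 0.823 and 0.511% of the summed signal in islets without Dox (replicates 1, 2 and 3), 1.03, 0.622 and 2.05% in Dox islets, 0.183, 2.56 and 0.0333% in macrophages and 0.0467, 0.739 and 0.0174% in endothelial cells. The highest share, in macrophage replicate 2, was 147 times the lowest, in endothelial replicate 3. These shares include the 5 transcription factors. They made up 73.4% of the member signal in macrophage replicate 3, 28.7% in endothelial replicate 1 and 87.5% in endothelial replicate 3. In every other library they made up at most 7.66%. The lowest shares thus overstate the enzyme signal, and the ratio of 147 understates its spread. Group means were 0.532 ± 0.281%, 1.24 ± 0.738%, 0.925 ± 1.42% and 0.268 ± 0.408% (SD, n = 3), and in both sorted fractions the SD was larger than the mean. The islet groups overlapped, since Dox replicate 2 lay below replicate 2 without Dox, and the mean share with Dox was 2.33 times that without. In each sorted fraction replicate 2 lay within or above the range of whole islets, and replicates 1 and 3 lay below its lowest value. In bulk RNA, fewer acinar cells and less acinar RNA per cell cannot be told apart.

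**Figure D1:**
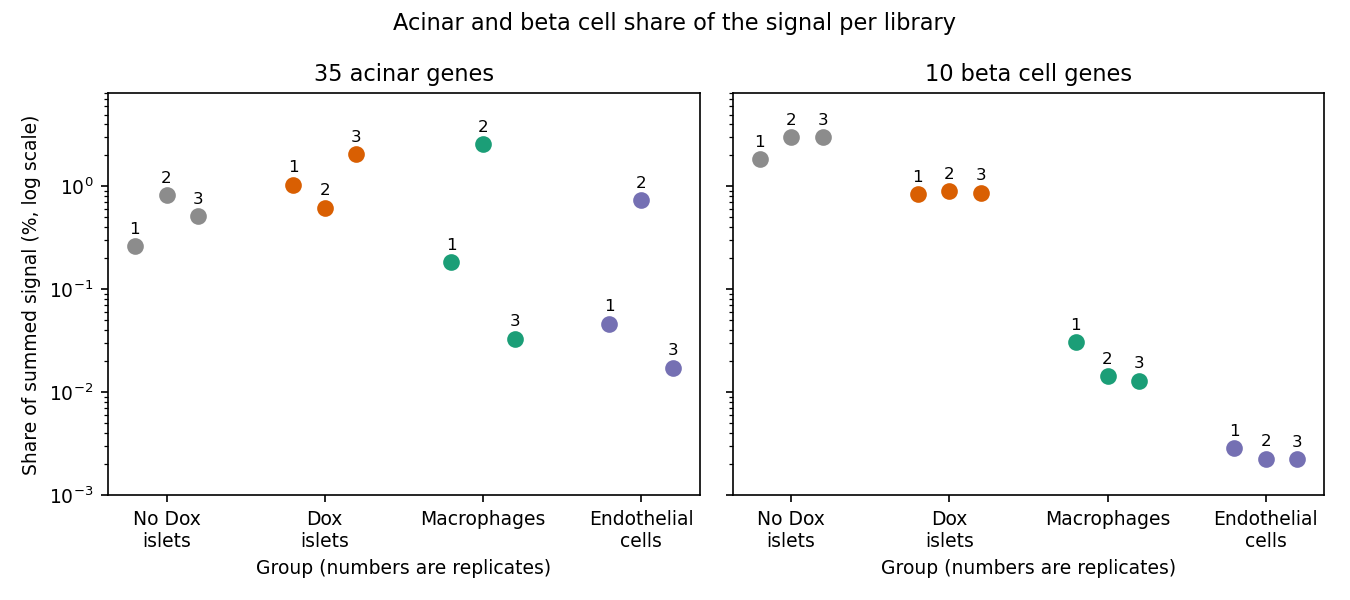
Share of the summed signal taken by the 35 acinar genes (left) and by 10 beta cell markers (right) in each library, on a log scale in percent; each point is 1 library and the number is its replicate. Acinar shares ran from 0.0174 to 2.56% with replicate 2 on top in both sorted fractions, while beta cell shares of the sorted libraries were at most 0.0306% and were highest in replicate 1 of both fractions. The acinar shares include the transcription factors, which made up most of the member signal in replicate 3 of both fractions.

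The beta cell signal did not follow the acinar signal in the sorted libraries. Beta cell markers took 0.0306, 0.0144 and 0.0130% in macrophages and 0.00287, 0.00226 and 0.00225% in endothelial cells (replicates 1, 2 and 3), so the libraries with the most acinar signal did not have the most beta cell signal. Ductal markers (10 genes, among them Krt19 and Sox9), which mark the other epithelial cell of the exocrine pancreas, took 0.00475 to 0.00580% in macrophages and 0.00205 to 0.00339% in endothelial cells, against 0.0227 to 0.0277% in islets without Dox and 0.0151 to 0.0202% in Dox islets. Between 1 and 3 of the 10 ductal markers stood at the floor in each sorted library. In macrophages most of the ductal sum was Spp1 (605, 722 and 551) and Krt7 (309, 389 and 499). Krt19 stood at the floor of 1 in every macrophage library, and Sox9 was at most 6.05 there. The macrophage share of the ductal list thus rested on few genes and is not a measure of duct cells. The part of these cell types in the acinar signal was not tested.

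Replicate 2 led both sorted fractions gene by gene. In macrophages all 30 secretory members followed the order replicate 2, replicate 1, replicate 3 from high to low, and in endothelial cells 27 of 30 did. Macrophage replicate 2 was the highest of the 12 libraries for 19 of the 30, and Dox islet replicate 3 for the other 11. The share of all genes with these orders was not counted. Macrophage replicate 2 exceeded replicate 1 by a median of 17.3-fold (range 5.82 to 34.1 over 30 genes), and endothelial replicate 2 exceeded replicate 1 by 28.0-fold (13.8 to 72.5). In replicate 3 of the 2 fractions, 10 and 9 of the secretory members were listed at the floor of 1, among them Cela3b, Pnliprp2 and Pla2g1b in both. Transcription factors lay below these medians where they were clear of the floor: replicate 2 over replicate 1 was 6.91 for Bhlha15, 2.65 for Nr5a2 and 1.11 for Rbpjl in macrophages, and 2.75, 1.21 and 11.9 in endothelial cells.

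**Figure D2:**
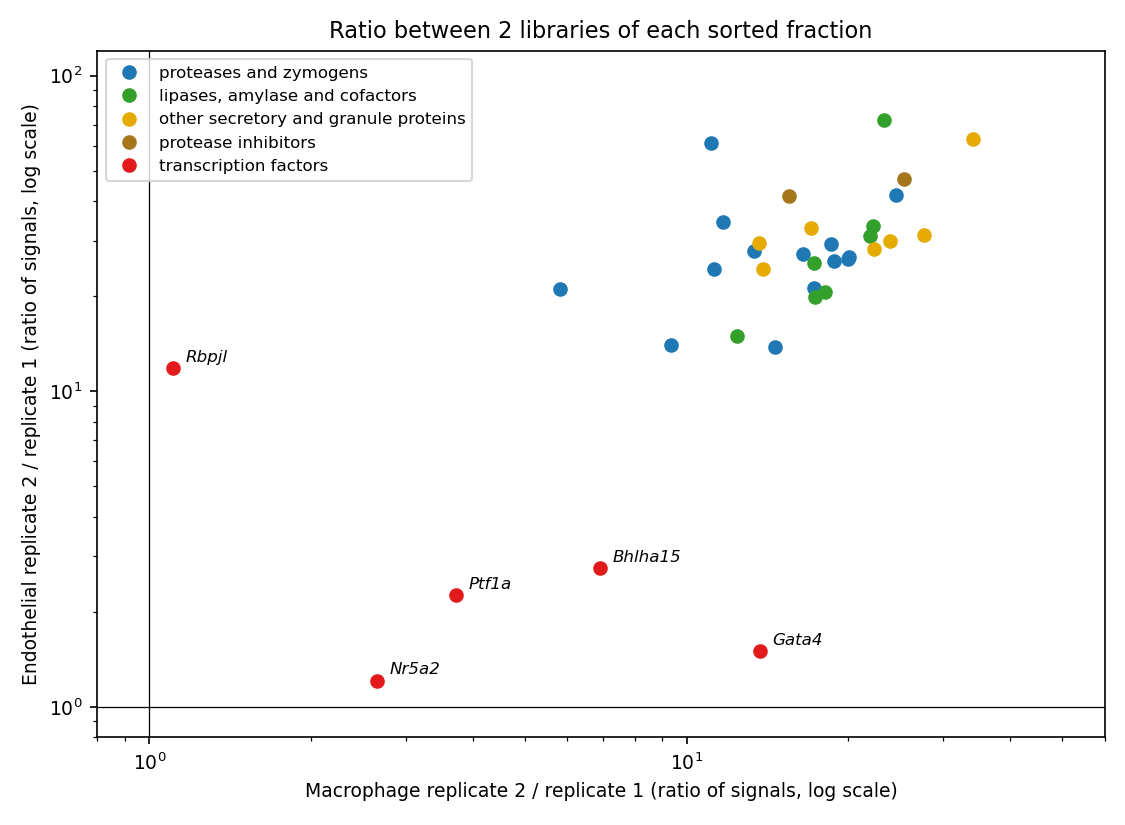
Ratio of the signal in replicate 2 to replicate 1 for each of the 35 genes, macrophages on the horizontal and endothelial cells on the vertical axis, both log scales, coloured by role; lines mark a ratio of 1. The secretory members lie between 5.82 and 34.1 on the macrophage axis and between 13.8 and 72.5 on the endothelial axis, and Rbpjl, Nr5a2, Bhlha15 and Ptf1a lie apart from them; Ptf1a and Gata4 were at or near the floor of 1.

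The order of the 30 secretory members by level was similar wherever their signal was high. Spearman's rho of each library's levels with the mean of islets without Dox, a description across 30 genes, was between 0.95 and 0.98 in the 10 libraries other than replicate 3 of the fractions, where it was 0.761 in macrophages and 0.800 in endothelial cells (the islets without Dox share libraries with the mean they are set against). In those 2 libraries the secretory members were so low that transcription factors made up 73.4 and 87.5% of the members' summed signal, almost all of it Rbpjl (72.6%) in macrophages and Nr5a2 (87.1%) in endothelial cells.

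Within islets the proportions of the enzymes shifted between libraries along with GC content. Across the 30 secretory members, the change in a gene's part of the member signal in replicate 2 without Dox, relative to the other 2 libraries of its group, had a Spearman correlation of 0.72 with the gene's GC content, and that in Dox replicate 1 of 0.73 (both descriptions across genes of the same libraries). Ctrb1, with 57.4% GC, made up 29.1% of the member signal in replicate 2 without Dox against 12.8 and 6.65% in replicates 1 and 3, and 23.5% in Dox replicate 1 against at most 11.7% in the other 2. Serpini2, with 38.3% GC, went the other way, at 0.150% against 0.914 and 0.991% without Dox and 0.228% against 0.561 and 0.935% with Dox. Whether GC content caused the shift was not tested.

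**Figure D3:**
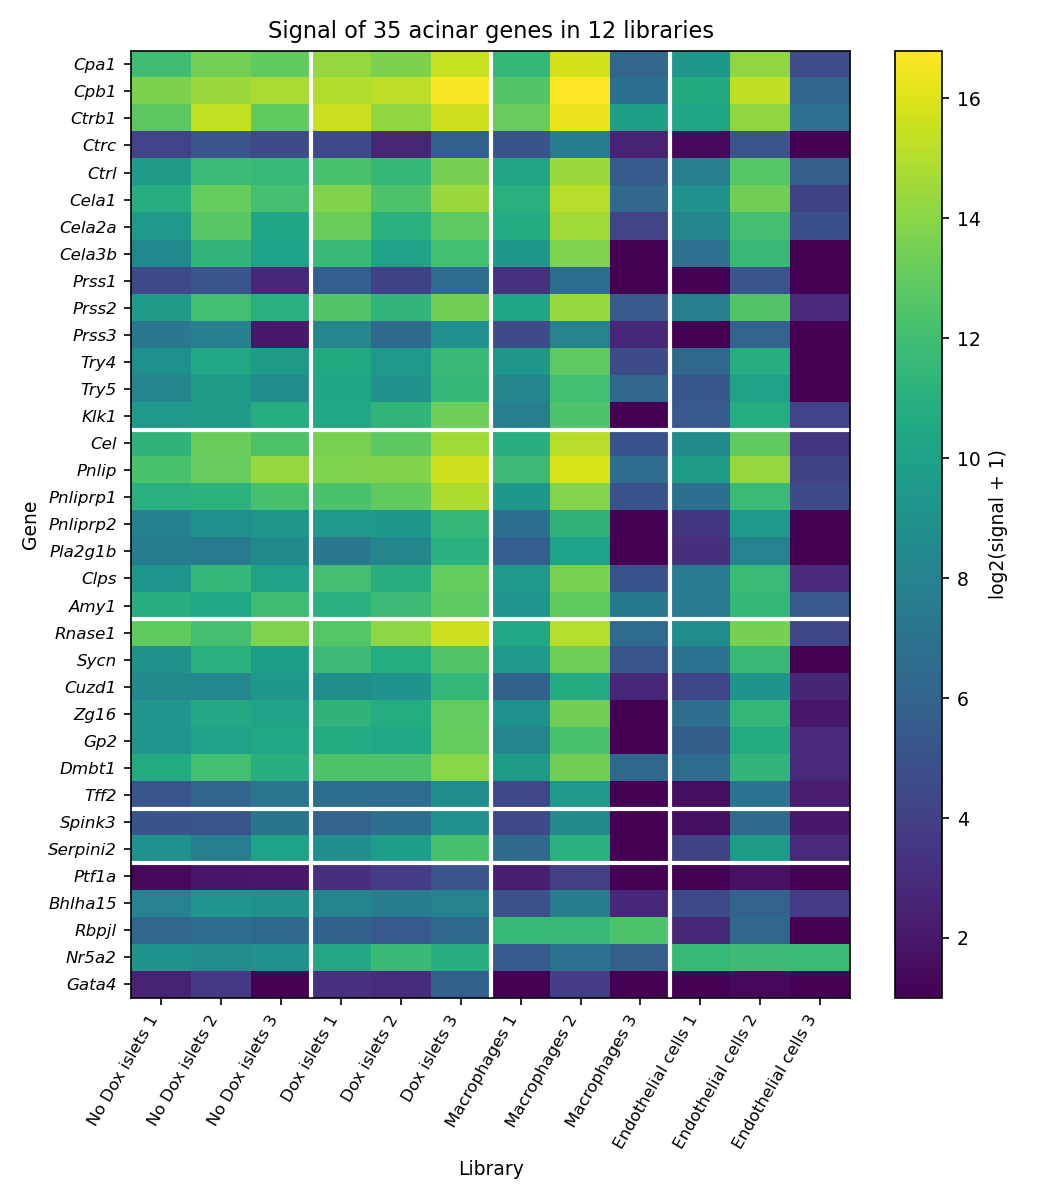
Signal of the 35 acinar genes (rows, grouped by role and separated by white lines) in the 12 libraries (columns, grouped by sample type), coloured by log2(signal + 1). Columns of replicate 2 of the sorted fractions and Dox islet replicate 3 are bright over the secretory genes, replicate 3 of both fractions is dark, and Rbpjl is bright in all macrophage columns and Nr5a2 in all endothelial columns.

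The first comparison asked what 1 week of Dox changed in whole islets. Of the 35 members, 28 were high enough to be tested and 1 passed the threshold, the nuclear receptor gene Nr5a2, which was higher with Dox, whereas 8.48% of 10214 genes passed (6.22% higher and 2.26% lower). No enzyme, granule protein or inhibitor gene passed. Of the 28, 27 had a change above 0, against 57% of all genes, with a median log2 change of 1.44 against 0.11 over all genes tested. At an unadjusted p under 0.05, 15 of the 28 were higher and 0 lower, against 15.4 and 8.48% of all genes. Dox replicate 3 was the highest islet library for 29 of the 30 secretory members, so the 28 are not separate observations. The groups did not overlap for 7 of the 28 tested members, all higher with Dox (Cpa1, Cpb1, Pnliprp1, Pnliprp2, Zg16, Dmbt1 and Nr5a2). That pattern was found in 17.3% of all genes tested. Ptf1a, not tested and near the floor without Dox, also had no overlap and was higher with Dox. The count of 1 depended on single libraries: it was 8 without replicate 2 of the islets without Dox, 4 without Dox replicate 1, and 0 without Dox replicate 2 or Dox replicate 3. Of all 10214 genes, 736, 653, 5 and 159 passed in these settings, in that order, against 866 with all libraries.

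**Figure D4:**
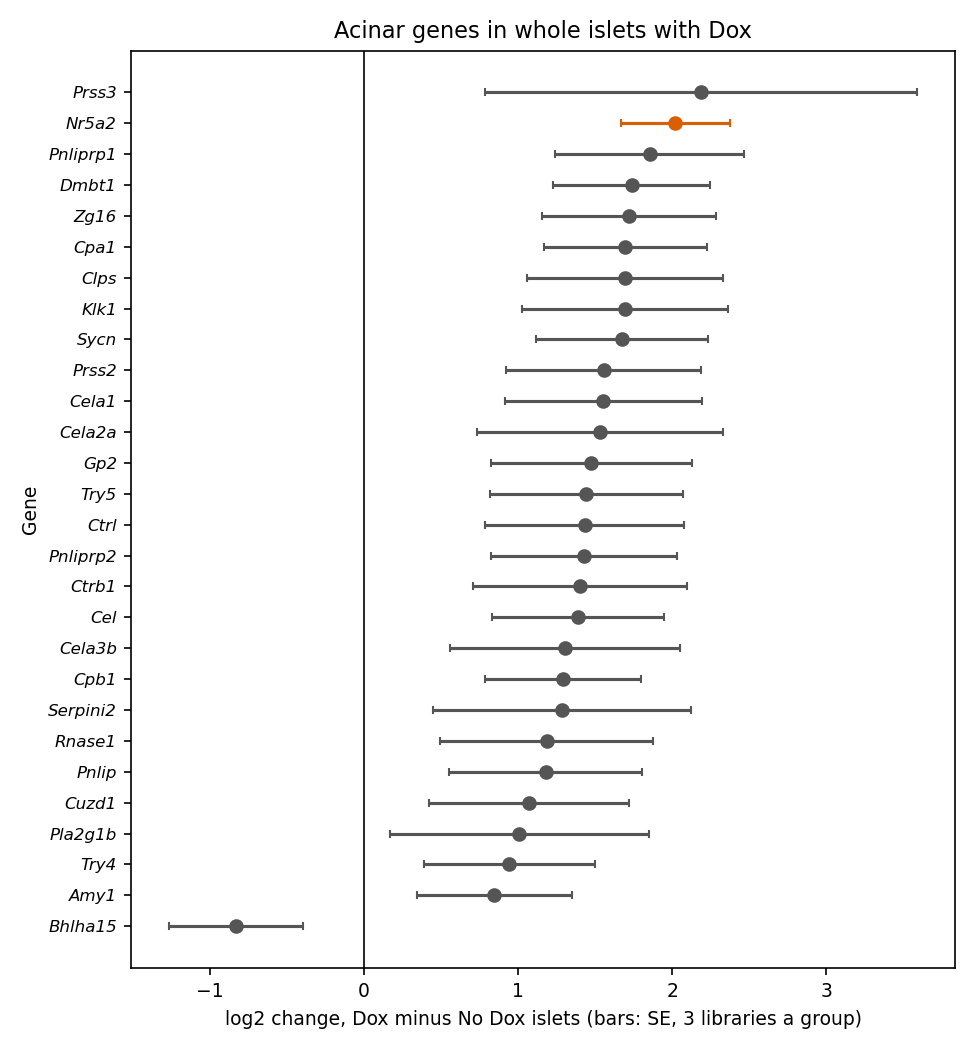
Difference in log2(signal + 1) between Dox islets and islets without Dox for the 28 members that were tested; points are limma estimates, bars are SE, 3 libraries a group. All but Bhlha15 lie above 0, and Nr5a2, in orange, is the gene that passed an adjusted p of 0.05.

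Among the 12 tested protease genes, 0 passed and 12 lay above 0, with log2 changes from 0.94 (Try4) to 2.19 (Prss3). Cpb1 encodes procarboxypeptidase B, which trims basic residues from peptide ends, and lies at chr3:20148163-20174655 in mm9. Its signal was 13336, 22219.5 and 28298 without Dox and 32577, 37882 and 99985 with Dox. Every library with Dox exceeded every library without, Dox replicate 3 was the highest, and the log2 change was 1.29 (SE 0.51, adjusted p = 0.154) by limma with Benjamini-Hochberg adjustment. Ctrb1, which encodes chymotrypsinogen B, had 7184, 42209.8 and 7790.0 without and 48126, 18365 and 49307 with Dox. Here the groups overlapped, with high values in both libraries that stood apart by GC content as well as in Dox replicate 3, and the change was 1.40 (SE 0.70, adjusted p = 0.265). Without replicate 2 of the islets without Dox, the change of Ctrb1 was 2.23 with an adjusted p of 0.0239. Cpa1, encoding procarboxypeptidase A1, had 3914, 11398 and 7844 without and 20177, 13084 and 45132 with Dox, and its groups did not overlap. Its change of 1.70 (SE 0.53, adjusted p = 0.0816) missed the threshold. The 5 trypsinogen genes Try4, Try5, Prss1, Prss2 and Prss3 lie within 222.8 kb on chromosome 6 and resemble each other, so reads may have been split between them. Of these, Prss3 had 156, 237 and 2.99 without Dox, of which replicate 3 stood near the floor, and 314, 87.2 and 505 with Dox, so that its change of 2.19 carried an SE of 1.40. Ctrc and Cela2a overlap over 11199 bases on the same strand of chromosome 4, so their reads cannot be told apart there. Prss1 and Ctrc were below the filter.

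All 7 genes for lipases, amylase and their cofactors were tested, 0 passed and 7 lay above 0, from 0.85 (Amy1) to 1.85 (Pnliprp1). Pnlip, the gene of pancreatic triglyceride lipase, had 4937, 8792 and 20023 without and 13687, 14480.2 and 50818 with Dox. The groups overlapped, and Dox replicate 3 alone lay clear of the rest, with a change of 1.18 (SE 0.63, adjusted p = 0.303). Cel, the gene of bile salt-dependent lipase, had 2500.1, 9209.7 and 5383 without and 12468, 7203 and 24848 with Dox, and its change was 1.39 (SE 0.56, adjusted p = 0.164). Pnliprp1 and Pnliprp2, relatives of Pnlip that lie beside it within 107.2 kb on chromosome 19, had no overlap between groups. Pnliprp1 had 2117, 2367 and 4701 without and 4885, 7833 and 29103 with Dox, a change of 1.85 (SE 0.61, adjusted p = 0.0964). Pla2g1b, which encodes pancreatic phospholipase A2, had 199.9, 169.8 and 378 without and 161, 302 and 2146 with Dox; its change of 1.01 rested on Dox replicate 3, without which it was -0.09.

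Among other secretory and granule proteins, 6 of 7 genes were tested, 0 passed and 6 lay above 0, from 1.07 (Cuzd1) to 1.74 (Dmbt1). Rnase1, the gene of pancreatic ribonuclease, had 7977, 4478 and 13617 without and 6441, 17934 and 49496 with Dox, with overlap and a change of 1.18 (SE 0.69, adjusted p = 0.356). Dmbt1, encoding a secreted scavenger-receptor mucin of exocrine and gut epithelia, had 1607, 4114 and 1955 without and 5367, 5399.7 and 16509 with Dox. All 3 values with Dox were above those without, and the change of 1.74 (SE 0.51, adjusted p = 0.0681) was the nearest to the threshold among the secretory members. Without replicate 2 of the islets without Dox it was 2.14 with an adjusted p of 0.0298. Zg16 encodes a zymogen granule lectin and had 594, 1490.4 and 1113 without and 2481, 1765 and 8044 with Dox, again without overlap, a change of 1.72 (SE 0.57, adjusted p = 0.0949). Of the inhibitors, Serpini2, a serine protease inhibitor of the serpin family, had 514, 218 and 1161 without and 467, 879.9 and 4598 with Dox and a change of 1.28 (SE 0.84, adjusted p = 0.420), whereas Spink3, the trypsin inhibitor stored in the granules, lay below the filter with 33.3, 36.9 and 139 without and 61.7, 111 and 495 with Dox.

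Dox islet replicate 3 was the highest of the 6 islet libraries for 29 of the 30 secretory members, and replicate 1 without Dox was the lowest for 22; neither order was counted over all genes. Stromal markers (7 genes) took 1.16 to 2.04% of the signal in Dox islets against 0.336 to 0.667% without Dox. Most of this sum was Rgs5, a pericyte gene, with 116585, 39379 and 104778 without Dox and 170137, 400951 and 299475 with Dox. Of the 7, the collagen genes Col1a1 and Col1a2 passed limma's adjusted test, both higher with Dox, whereas Dcn, a fibroblast gene, had a change of -0.18 (adjusted p = 0.803). Endothelial markers took 0.431 to 0.537% with Dox against 0.177 to 0.238%. The beta cell share was lower with Dox (0.837 to 0.902% against 1.83 to 3.02%), and so was the ductal share (0.0151 to 0.0202% against 0.0227 to 0.0277%). The part of these shifts in the acinar values was not tested.

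The second comparison set macrophages against endothelial cells. Without pairing, 2 of 23 tested members passed, Rbpjl higher and Nr5a2 lower in macrophages, whereas 65.4% of 10145 genes passed (29.4% higher and 36% lower). The labels state no pairing, but same-numbered libraries deviated together from their group means (correlations 0.23, 0.47 and 0.42). On the basis of these same data, the replicate was also used as a block. Then 18 of the 23 passed, 17 higher in macrophages and Nr5a2 lower, against 69.8% of all genes (31.4% higher and 38.4% lower). Of the 17, Try4, Try5, Sycn and Rbpjl stood at the floor in endothelial replicate 3, and Cela3b in replicate 3 of both fractions. Within same-numbered libraries, macrophages exceeded endothelial cells for 30 of 30 secretory members in replicate 1, by a median of 5.60-fold, and for 30 of 30 in replicate 2, by 3.65-fold. In replicate 3, macrophages were higher for 18 and lower for 8. The share of all genes with these directions was not counted. The 30 genes rose and fell together between libraries, so they are not 30 separate observations.

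For single genes the differences are given without and with the block. The blocked p-values hold only if the same-numbered libraries are pairs, which the labels do not state. Cpb1 had 6029, 113396 and 115 in macrophages and 1521, 39497 and 65.7 in endothelial cells, so each fraction spanned a wide range and the 2 ranges overlapped almost fully. The log2 difference was 1.43 (SE 2.81, adjusted p = 0.674) without the block, and 1.43 with SE 0.21 and an adjusted p of 0.00107 with it. Ctrb1 had 8836, 82636 and 958 against 1286, 18043 and 122, a difference of 2.65 (SE 2.00, adjusted p = 0.277). With the block its SE was 0.15 and its adjusted p 1.19e-05. Pnlip had 3574, 61588 and 97.6 against 794, 20213 and 15.6. Its difference was 2.11 (SE 2.87, adjusted p = 0.544), and the blocked adjusted p was 9.12e-05. Cel had 1921, 34777 and 30.0 against 381, 7848 and 9.38, and its difference of 2.02 (SE 2.90, adjusted p = 0.565) reached a blocked adjusted p of 0.000121. Rnase1 had 1427, 34137 and 90.6 against 408, 12224 and 18.6, a difference of 1.84 (SE 2.62, adjusted p = 0.563), with a blocked adjusted p of 0.000117. Dmbt1 had 790.0, 10751 and 78.5 against 91.5, 2707 and 6.25, a difference of 2.85 (SE 2.31, adjusted p = 0.310), with a blocked adjusted p of 0.000251. Try5, a trypsinogen gene, had the smallest p of the secretory members without the block, 308, 4111 and 72.5 against 38.0, 1055 and 1 and a difference of 3.38 (SE 2.25, adjusted p = 0.220); with the block its adjusted p was 0.00256. In all 7 genes macrophages exceeded endothelial cells in each of the 3 numbered pairs, as in 18 of the 30 secretory members, a pattern not counted over all genes. The 5 tested members that did not pass with the block were Gp2, Ctrl, Zg16, Cela2a and Klk1. Among the 7 genes with values above, the unblocked differences of Cpb1, Cel, Rnase1 and Pnlip turned negative without macrophage replicate 2, between -0.93 and -0.12. Without endothelial replicate 3 they lay between -0.85 and -0.44. The other secretory members were not followed in these settings.

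The remaining comparisons set each sorted fraction against Dox islets. These 2 and the preceding one share libraries, so their values are given side by side and their overlap is not counted. In macrophages against Dox islets, 3 of 29 tested members passed, Rbpjl higher and Nr5a2 and Bhlha15 lower, whereas 56% of 10687 genes passed (24.7% higher and 31.3% lower). The median log2 difference of the members was -3.16, against -0.12 over all genes. The outcome rested on macrophage replicate 2: without it, 29 of 29 passed, 28 lower and Rbpjl higher. In that setting 5113 of all 10687 genes passed (2169 higher and 2944 lower). In endothelial cells against Dox islets, 4 of 27 passed, all lower (Bhlha15, Pnliprp1, Dmbt1 and Klk1), against 31.5% of 10187 genes (14% higher and 17.5% lower). The median was -4.82, against 0.08 over all genes. At an unadjusted p under 0.05, 24 of the 27 were lower, against 21.6% of all genes. The secretory members moved together between libraries, so the 24 are not separate observations. Without endothelial replicate 2, 26 of 27 passed, all lower, against 2133 of all 10187 genes (1499 lower). Without Dox islet replicate 1, 12 passed, against 6168 of all genes. Without Dox islet replicate 2, 2 passed, Bhlha15 lower and Nr5a2 higher, against 2833 of all genes. Without endothelial replicate 1 or 3, or Dox islet replicate 3, 1 passed, against 2105, 2264 and 2313 of all genes.

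Pnliprp1 had 106, 3539 and 25 in endothelial cells and 682, 15193 and 30.2 in macrophages. Only the endothelial values lay wholly below those of Dox islets, and the difference from them was -5.60 (SE 1.60, adjusted p = 0.0307). Dmbt1 differed by -6.00 (SE 1.81, adjusted p = 0.0373) in endothelial cells and by -3.16 (SE 1.44, adjusted p = 0.0923) in macrophages. Klk1, the gene of tissue kallikrein, a serine protease with near-identical relatives, had 41.3, 1735 and 17.2 in endothelial cells and differed by -4.91 (SE 1.57, adjusted p = 0.0465). In macrophages it had 225, 5509 and 1, the last value at the floor. For the calls of Pnliprp1, Dmbt1 and Klk1, leaving out Dox islet replicate 2 or 3, or endothelial replicate 1 or 3, raised the adjusted p above 0.05 (0.0671 to 0.168). Cpb1 differed by -3.54 (SE 1.99, adjusted p = 0.160) in macrophages and by -4.97 (SE 1.93, adjusted p = 0.0860) in endothelial cells, Pnlip by -2.95 (SE 1.87, adjusted p = 0.208) and -5.07 (SE 2.16, adjusted p = 0.110), and Ctrb1 by -1.99 (SE 1.31, adjusted p = 0.224) and -4.63 (SE 1.52, adjusted p = 0.0511). Cel differed by -3.36 (SE 2.03, adjusted p = 0.188) and -5.38 (SE 2.00, adjusted p = 0.0765), Rnase1 by -3.44 (SE 1.78, adjusted p = 0.129) and -5.28 (SE 2.00, adjusted p = 0.0807), and Serpini2 by -4.10 (SE 2.10, adjusted p = 0.128) and -4.76 (SE 1.64, adjusted p = 0.0598). None of these 6 genes passed. Endothelial replicate 2 lay within the range of the 6 islet libraries for all 6 genes. Macrophage replicate 2 lay above every islet library for Cpb1, Pnlip, Ctrb1 and Cel, and within their range for Rnase1 and Serpini2.

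Rbpjl in macrophages did not keep the order of libraries seen for the enzymes, and Nr5a2 in endothelial cells varied little between libraries. Bhlha15 in both fractions and Rbpjl in endothelial cells kept the order replicate 2, replicate 1, replicate 3. Rbpjl, the PTF1 subunit known chiefly from acinar cells, was read at 3023, 3342 and 5462 in macrophages, against 74.0, 99.0 and 83.8 in islets without Dox, 58.3, 40.6 and 78 in Dox islets and 6.15, 72.9 and 1 in endothelial cells. The macrophage values lay above all others and were highest in replicate 3, the library with the lowest enzyme signal of its fraction. The log2 difference was 8.55 (SE 1.13, adjusted p = 0.000239) from endothelial cells and 6.04 (SE 0.35, adjusted p = 2.37e-06) from Dox islets, and it stayed past the threshold in 18 of 18 and 16 of 16 alternatives. No endothelial or islet library reached the filter for Rbpjl, so it entered both comparisons only through macrophages. Rbpjl lay below the filter in the islet comparison. The gene is on the plus strand of chromosome 2, chr2:164228641-164240948 in mm9, and its first 2020 bases overlap Matn4, which encodes a matrix protein, on the minus strand. Matn4 was read at 319.8, 557 and 857 in macrophages and at most at 5.68 in any other library. Sdc4, which encodes a cell surface proteoglycan, lies 8798 bases downstream of Rbpjl on the minus strand and had 7999, 7869 and 13572 in macrophages. Its signal was 499 to 919 in the islet libraries and 18.1 to 37.5 in endothelial cells. Whether counting used strand is not stated by the labels or the file, so reads of Rbpjl and of Matn4 cannot be told apart where they overlap.

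Nr5a2, the receptor LRH-1, which acts with PTF1 on acinar genes, was the member that changed in islets. Its signal was 573, 421 and 536 without Dox and 1452, 3143 and 1898 with Dox, with no overlap, a log2 change of 2.02 (SE 0.35, adjusted p = 0.0145). Endothelial cells had 2994, 3623 and 3447, the most even values of any group, and macrophages 46.1, 122 and 54.4. Every endothelial library stood above every macrophage library, and the difference of macrophages from endothelial cells was -5.61 (SE 0.35, adjusted p = 2.55e-06). The difference of macrophages from Dox islets was -4.91 (SE 0.45, adjusted p = 2.39e-05). No macrophage library reached the filter, so Nr5a2 entered these macrophage comparisons only through the other group. Endothelial cells and Dox islets differed by 0.70 (SE 0.28, adjusted p = 0.0898), which did not pass; it passed, higher in endothelial cells, in 3 of 16 alternatives, among them removal of each library's GC trend (adjusted p = 0.0106) and leaving out Dox islet replicate 2 (0.00855). Nr5a2 signal was set beside that of the endothelial gene Pecam1. Per 100 units of Pecam1 signal it was 7.78, 7.13 and 5.71 in islets without Dox, 6.94, 10.5 and 8.66 in Dox islets, 5.24, 5.58 and 5.54 in endothelial cells, and 5.97, 16.5 and 7.36 in macrophages, where both genes were low. The highest ratio of the 12 was in macrophage replicate 2, and the islet groups overlapped. The part of endothelial RNA in the islet change of Nr5a2 was not tested. The islet call was kept in 15 of 18 alternatives. It was lost with no filter on low values (adjusted p = 0.0897) and without Dox replicate 2 (0.0856) or 3 (0.0564).

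Bhlha15 (Mist1), which shapes granule storage in secretory cells, was the tested member with a negative islet change. It had 252, 624 and 524 without Dox and 276, 199.6 and 264 with Dox. The groups overlapped through replicate 1 without Dox, and the change of -0.83 (SE 0.43, adjusted p = 0.291) did not pass. Macrophages had 29.4, 204 and 6.05 and endothelial cells 21.9, 60.2 and 12.5. Bhlha15 was lower in endothelial cells than in Dox islets, with a difference of -3.20 (SE 0.57, adjusted p = 0.00341), and passed in 16 of 16 alternatives. No endothelial library reached the filter, so Bhlha15 entered that comparison only through Dox islets. In macrophages it differed by -2.80 (SE 1.05, adjusted p = 0.0474), which passed in 7 of 16 alternatives and was lost when any library other than macrophage replicate 2 was left out (adjusted p between 0.0874 and 0.119). Ptf1a, which defines the PTF1 complex, was low throughout, with 1.58, 2.84 and 2.99 in islets without Dox and 8.07, 13.6 and 34.8 in Dox islets, and at most 15.1 in a sorted library. Gata4, a zinc finger factor of the developing pancreas, had 4.73, 12 and 1 without and 8.55, 7.07 and 56.1 with Dox, with at most 13.7 in a sorted library. The highest islet value of both, as of the enzymes, was in Dox replicate 3, and neither reached the filter.

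**Figure D5:**
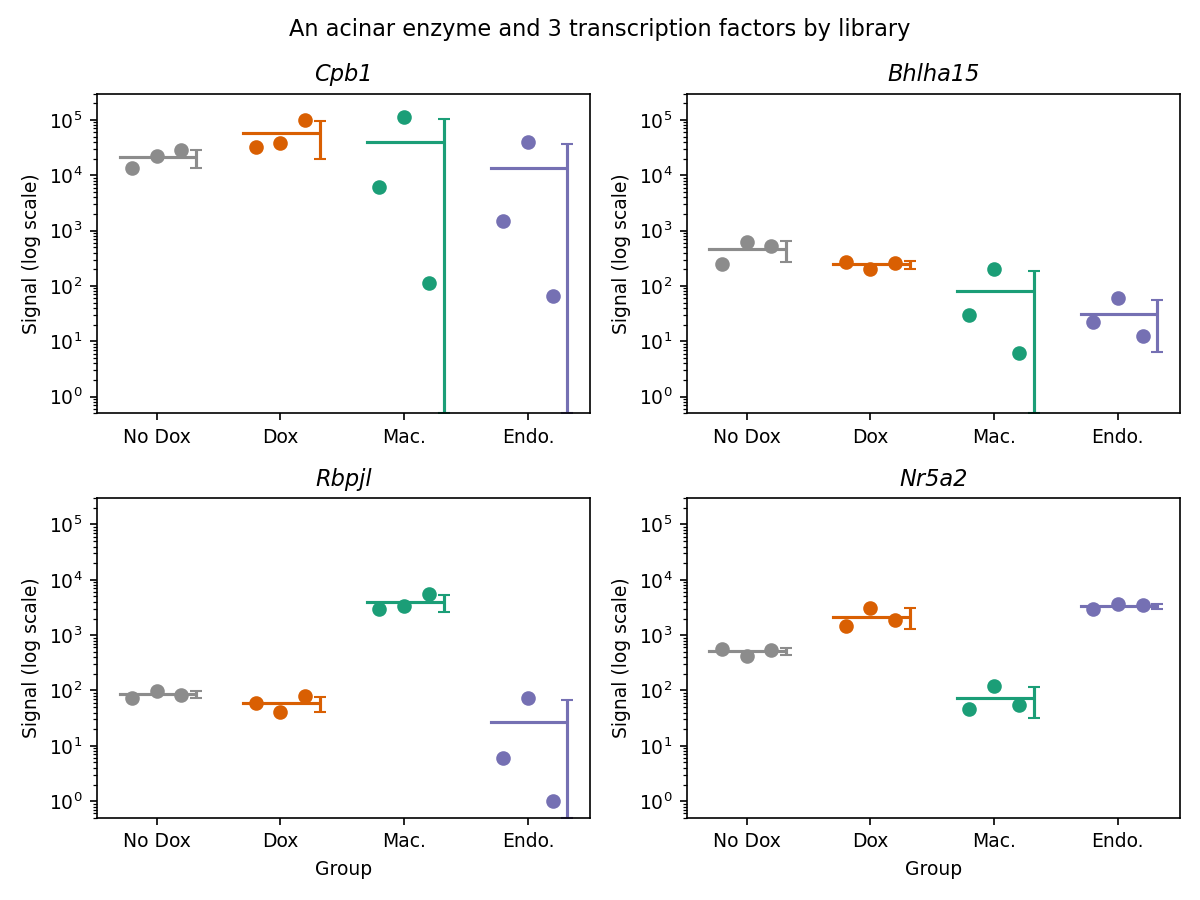
Signal on a log scale of the enzyme gene Cpb1 and the factors Bhlha15, Rbpjl and Nr5a2 in each library (points) by group; horizontal lines are means and side bars the SD of 3 libraries, which run off the lower end of the axis where the SD exceeds the mean. Cpb1 spans orders of magnitude within each sorted fraction, whereas Rbpjl separates macrophages (3023 to 5462) and Nr5a2 separates endothelial cells (2994 to 3623) from the other fraction.

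A list of 24 other genes known from acinar cells was followed in the same way, and 21 were in the table. Together they took 0.0742 to 0.124% of the signal in islets without Dox, 0.132 to 0.413% in Dox islets, 0.0364 to 0.487% in macrophages and 0.00776 to 0.161% in endothelial cells. The lowest share of each fraction, in replicate 3, rested on few genes. In macrophages most of the sum of 8211 was Gatm (6669) and Vamp8 (777). In endothelial cells most of the sum of 1768 was Chrm3 (617), Vamp8 (498), Nupr1 (260) and Rab3d (227). In Dox islets against islets without Dox, 0 of 9 tested genes passed limma's adjusted test, against 8.48% of all genes. At an unadjusted p under 0.05, 3 were higher and 1 lower, against 15.4 and 8.48% of all genes. The gene 2210010C04Rik had 10589, 14175 and 20517 without and 23307, 25792 and 82272 with Dox, and 4884, 91685 and 217 in macrophages and 1303, 33080.1 and 68.6 in endothelial cells, the same order of libraries as Cpb1 within each group. Gatm, which encodes the first enzyme of creatine synthesis and is expressed in acinar cells, had 1771, 1557 and 1960.3 in islets without Dox and 1079.6, 1954 and 2414 in Dox islets. In macrophages it had 6747, 7155 and 6669, even between replicates, and in endothelial cells 44.9, 191 and 14.0. Of 7 genes tested between the fractions, Gatm and Vamp8, a SNARE of granule release, were higher in macrophages and Chrm3, a muscarinic acetylcholine receptor, was lower, whereas 65.4% of all genes passed. Of 10 tested in macrophages against Dox islets, Gatm and Vamp8 were higher and Chrm3 and Rab3d, a GTPase of secretory granules, lower, whereas 56% of all genes passed. No macrophage library reached the filter for Chrm3, so it entered both macrophage comparisons through the other group. Of 8 tested in endothelial cells against Dox islets, Chrm3 was higher and Gatm, Rab3d and Nupr1, a stress-responsive gene, lower, whereas 31.5% of all genes passed.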

How the data were processed

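RNA was measured in 12 libraries, 3 in each of 4 groups set from the titles and characteristics of the labels. The authors deposited a normalized expression signal, linear with a floor of 1; for the method of normalization, the counting program, the annotation release and the use of strand nothing is given in the sources used here. The submitters' processing notes name TopHat2 2.0 and the mm9 build. Per the labels' protocols, RNA was amplified with a NuGEN Ovation kit before libraries were made, and read numbers are unknown, so depth gives no interval. With 1 entry per symbol, 22711 of 22793 rows were left, and 25 symbols stored as dates were restored.

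Values were analysed as log2(signal + 1) with limma 3.58.1 in R 4.3.3, with a variance trend, on the 6 libraries of each comparison. Genes had to reach 183, the 40th percentile of values above the floor, in 3 of the 6 libraries. A gene low in 1 group could thus enter a test through the other group alone. P-values were adjusted by Benjamini-Hochberg over all genes tested, with a threshold of 0.05. The added 1 understates changes of low genes. The script was tested on simulated data. The members, gene lists and tests were chosen with earlier results of these data known. Values of every library are given for the 2 members of each role with the highest mean, for members past the threshold in islets, and for those with the smallest p elsewhere; others are named to complete counts after their values were seen.

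Between macrophages and endothelial cells, libraries with the same number deviated together from their group means (correlations 0.23, 0.47 and 0.42 over 11593 genes). The labels do not state pairing, so this rests on the data alone; blocked values are given for this comparison. Alternatives were another pseudocount, no filter, 2 rescalings, removal of each library's GC trend, 1 fit over 4 groups, no variance trend, the block, and each library left out.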

Additional observations from a re-analysis of the deposited data

How the results depend on the processing

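Each count of members below is followed, in parentheses, by the count over all genes in the same setting. In Dox islets against islets without Dox, the count of members past the threshold was 1 (866). It was 0 (97) with no filter on low values, 5 (627) with a replicate block and 0 to 8 (5 to 736) when single libraries were left out. Between macrophages and endothelial cells it was 2 (6634), and 18 (7086) with the replicate block and 2 to 3 (5829 to 7129) with single libraries left out. In macrophages against Dox islets it was 3 (5983), and 7 (6303) with the block and 2 to 29 (4913 to 7144) with single libraries left out. In endothelial cells against Dox islets it was 4 (3206), and 2 (3986) with no filter, 8 (3530) with the GC trend removed and 2 (2452) with all 4 groups in 1 fit. It was 2 (3026) with no variance trend, 18 (3556) with the block and 1 to 26 (2105 to 6168) with single libraries left out. With a filter at the 40th percentile floor included, chosen after seeing the data, it was 8 (4700). The cause of these changes was not tested, beyond the different numbers of genes tested under each filter. Same-numbered libraries correlated at -0.24, -0.64 and 0.21 between the islet groups, at 0.21, 0.087 and 0.042 between macrophages and Dox islets, and at 0.30, -0.013 and 0.061 between endothelial cells and Dox islets, so in these comparisons the numbers are not taken as pairs.

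The log2 ratio of mean acinar shares was 1.22 between the islet groups (0.639 to 1.68 with single libraries left out, an alternative chosen after seeing the data), 1.79 for macrophages over endothelial cells (-1.31 without macrophage replicate 2, up to 4.85), -0.42 for macrophages over Dox islets (-3.52 to 0.159, above 0 without macrophage replicate 1, at 0.0668, macrophage replicate 3, at 0.148, or Dox islet replicate 3, at 0.159) and -2.21 for endothelial cells over Dox islets (-5.27 without endothelial replicate 2, up to -1.63). The shares behind these ratios include the transcription factors, which made up most of the member signal in replicate 3 of both fractions. Single genes were followed under the alternatives for every tested member in islets, but in the other comparisons only for some tested members. Sign changes of members not followed were not counted. Of the values of the followed genes under an alternative, 910 kept direction and side of the threshold, 52 were newly past it, 31 were no longer past it and 9 changed sign. These 9 were Pla2g1b in islets without Dox replicate 3 (-0.0865), and between the fractions Cpb1, Cel, Rnase1 and Pnlip without macrophage replicate 2 (-0.927, -0.366, -0.351 and -0.118) and without endothelial replicate 3 (-0.852, -0.442, -0.441 and -0.524); with single libraries left out their highest values were 1.78 for Pla2g1b, and 4.04, 4.70, 4.20 and 4.60 for Cpb1, Cel, Rnase1 and Pnlip.

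Over all genes, the islet comparison called 866, of which 73.3% were higher; it called 97 with no filter, 5 without Dox replicate 2, 159 without Dox replicate 3, 1596 with the GC trend removed and 1510 with all 4 groups in 1 fit. There, 57.8% of calls were higher with quantile normalization, 62.2% with median ratio rescaling and 57.9% with the GC trend removed, and these rescalings moved the median log2 change of all genes from 0.11 to -0.02, -0.00 and -0.02. In endothelial cells against Dox islets 3206 genes were called, 44.4% higher, and 54.8% were higher after quantile normalization. Without Dox islet replicate 1 the count was 6168. The unknown depth and the floor of 1 limit what can be said of members near the floor.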
